A study of Homo sapiens with 4 samples.

Results

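Acetyl-CoA supply genes were examined for accessible chromatin: the 3 acetyl-CoA synthetase genes of the ACSS family (ACSS1, ACSS2 and ACSS3) and 4 further genes, ACLY, SLC25A1, PDHA1 and CRAT. These 7 of 20037 protein-coding genes were chosen by name, and every deposited peak within the RefSeq span of a gene or within 25 kb of it was taken. The windows held 12 and 16 deposited rows in the ACSS2i libraries and 20 and 31 in the DMSO libraries, which formed 20 of the 53572 merged regions of the series. The assay was ATAC-seq, in which the Tn5 transposase cuts and tags open DNA, on 786-O cells, a line from human clear cell renal cell carcinoma that lacks functional VHL. Cells were treated for 24 h with 5 µM ACSS2i, the compound that the study directs at ACSS2, or with DMSO at equal volume, and each group had 2 libraries. All groups are thus 1 cell line, and nothing in the labels says that the replicates came from separate cultures.

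Acetyl-CoA is the donor of the acetyl groups on histones and the building block of fatty acids and sterols, and it cannot cross the inner mitochondrial membrane. In the cytosol and nucleus it comes from citrate, which SLC25A1 exports from mitochondria and ACLY cleaves, and from acetate, which ACSS2 activates. Inside mitochondria it comes from pyruvate through the pyruvate dehydrogenase complex, whose catalytic E1 alpha subunit is encoded by PDHA1, and from acetate through ACSS1. ACSS3 encodes a mitochondrial synthetase that prefers propionate, and CRAT encodes carnitine acetyltransferase, which moves acetyl groups between CoA and carnitine.

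The peak lists of the whole series differed in length before any gene was considered. The ACSS2i lists held 16400 and 22044 peaks, against 34696 and 50294 in the DMSO lists, and the lowest −log10 q in any list was 2.00. For that reason a missing call in an ACSS2i library was read against the share of all regions or genes with the same pattern. Of 11 markers of the kidney line, 7 and 10 had a start-site peak in the ACSS2i libraries and 10 in each DMSO library, and PAX8, a kidney lineage factor, and EPAS1, the HIF-2 alpha gene, were called in all but ACSS2i replicate 1. CA9, on the same list, had none in any library. Of 5 immune and 5 endothelial or stromal markers, none had one in an ACSS2i library, against 0 and 1 immune and 1 stromal marker in each DMSO library, SPI1 and PDGFRA. Their part in the results was not tested.

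RefSeq lists 2 starts for ACSS2, and the upstream sequences of both are shown because the accessible region lay at only the downstream one in all 4 libraries. ACLY, SLC25A1, PDHA1 and ACSS1 follow as the other genes of the set with a RefSeq promoter sequence, while ACSS3 and CRAT are named only. Each line gives the 250 bases before the start (GRCh38.p14, 5′ to 3′ on the gene's strand), with the GC box GGGCGG and the CCAAT box CCAAT in capitals on either strand.
ACSS2 upstream start, chr20:34874739-34874988, plus strand: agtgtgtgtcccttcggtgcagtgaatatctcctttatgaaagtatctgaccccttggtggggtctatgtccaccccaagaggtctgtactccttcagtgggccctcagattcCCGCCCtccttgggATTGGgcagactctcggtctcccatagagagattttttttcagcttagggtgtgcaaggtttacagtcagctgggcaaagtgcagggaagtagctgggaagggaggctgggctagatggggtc
ACSS2 downstream start, chr20:34876362-34876611, plus strand: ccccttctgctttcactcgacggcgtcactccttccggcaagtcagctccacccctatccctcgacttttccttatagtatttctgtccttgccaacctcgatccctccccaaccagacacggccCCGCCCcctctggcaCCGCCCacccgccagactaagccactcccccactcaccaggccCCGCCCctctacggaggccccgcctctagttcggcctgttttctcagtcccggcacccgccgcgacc
ACLY upstream start, chr17:41919023-41919272, minus strand: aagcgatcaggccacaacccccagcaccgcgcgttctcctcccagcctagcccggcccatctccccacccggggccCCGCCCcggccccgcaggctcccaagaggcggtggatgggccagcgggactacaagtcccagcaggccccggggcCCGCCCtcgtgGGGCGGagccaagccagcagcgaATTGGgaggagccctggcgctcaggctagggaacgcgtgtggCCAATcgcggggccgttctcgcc
SLC25A1, chr22:19178737-19178986, minus strand: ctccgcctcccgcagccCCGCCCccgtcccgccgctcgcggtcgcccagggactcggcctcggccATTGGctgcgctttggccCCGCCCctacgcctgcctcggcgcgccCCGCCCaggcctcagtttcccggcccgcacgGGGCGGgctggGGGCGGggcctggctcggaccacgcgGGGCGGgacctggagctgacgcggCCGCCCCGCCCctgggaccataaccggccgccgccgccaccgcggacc
PDHA1, chrX:19343677-19343926, plus strand: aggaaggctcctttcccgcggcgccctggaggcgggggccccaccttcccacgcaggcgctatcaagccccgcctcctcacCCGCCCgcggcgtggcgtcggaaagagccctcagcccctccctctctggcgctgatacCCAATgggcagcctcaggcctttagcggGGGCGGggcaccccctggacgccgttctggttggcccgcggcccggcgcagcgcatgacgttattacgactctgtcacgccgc
ACSS1 upstream start, chr20:25058140-25058389, minus strand: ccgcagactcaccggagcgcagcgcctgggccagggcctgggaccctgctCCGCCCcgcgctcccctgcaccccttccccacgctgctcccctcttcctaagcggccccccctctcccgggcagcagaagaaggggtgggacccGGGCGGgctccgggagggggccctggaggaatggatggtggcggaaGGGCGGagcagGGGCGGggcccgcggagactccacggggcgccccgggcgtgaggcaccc

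The sequences before the ACSS2 starts differed in composition. The downstream one held 18 CpG dinucleotides and 3 GC boxes, and the upstream one held 3 CpG, 1 GC box and 1 CCAAT box. The median of 22199 promoters of protein-coding genes was 16 CpG, and 53.7% of them held a GC box. SLC25A1 had the most CpG of the sequences shown, 37 with 8 GC boxes, of which the pair nearest the start overlap, and 1 CCAAT box. PDHA1 had 27 CpG with 2 GC boxes and 1 CCAAT box, ACLY had 23 with 3 and 2, and ACSS1 had 22 with 4 and none. A CCAAT box was found in 32.7% of all promoters. ACGTG, a form of the core that HIF factors recognise, was in 0 of these 6 windows and in 20.2% of all promoters. The other form of that core, GCGTG, was not searched. It or its complement stands in the printed sequences of ACLY, SLC25A1, PDHA1 and ACSS1. The sterol element TCACNCCAC was in none of the 6 and in 0.883% of all. CACGTG, which contains ACGTG, and TGANTCA, the AP-1 site, were likewise in none, beside 7.37% and 5.36% of all. TGACG, part of the cAMP response element, was in those of SLC25A1, PDHA1 and the downstream ACSS2 start, beside 24.2% of all. Both strands were searched, and a match or its lack describes the letters of this window.

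ACSS2 kept an accessible region at its downstream start in every library, and a second region inside the gene was called with DMSO alone. The gene lies on the plus strand of chromosome 20 (34874989 to 34927959, hg38), between GGT7 and GSS. The start region (34875935 to 34876860) lies inside the gene span and covers the start at 34876612. Fold is the authors' value for a peak, its summit over the local background of the same library. At the start region the folds were 3.23 and 4.04 with ACSS2i, against 5.98 and 7.25 with DMSO, and the groups did not overlap. Of all regions called in all 4 libraries, 82.2% had lower folds in both ACSS2i libraries than in both DMSO libraries, so the direction at ACSS2 is that of most such regions.

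Peaks at the ACSS2 start were narrower in both ACSS2i libraries than in both DMSO libraries, as at 79.9% of the regions called in all 4. ACSS2i replicate 1 had a pair of narrow peaks of 264 and 184 bp there (34876167 to 34876430 and 34876595 to 34876778), and ACSS2i replicate 2 had 1 peak of 391 bp (34876204 to 34876594). DMSO replicates 1 and 2 had single peaks of 753 bp (34876094 to 34876846) and 926 bp (34875935 to 34876860). The 2 narrow peaks thus stand where each DMSO library had 1 wide peak. If a peak had to cover at least 50% of the merged region to count, the ACSS2 start region would be called in neither ACSS2i library. Under that rule this held for 53.8% of all regions called in both DMSO libraries. Summits of the strongest peaks fell close together, at −266 and −219 bp from the downstream start with ACSS2i and at −243 and −264 bp with DMSO, where a minus means upstream. The other peak of ACSS2i replicate 1 had its summit 62 bp after the start and a fold of 3.09. Of the 250 bases printed above for this start, peaks covered 86 and 233 with ACSS2i and 250 in each DMSO library.

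The rank of the ACSS2 start region within its list was low in 1 library. Its percentile of −log10 q among the peaks of the library was 11.5 and 66.8 with ACSS2i, against 78.7 and 83.8 with DMSO. Percentiles from lists of unequal length are not comparable, so the region was also ranked among the 13306 regions called in all 4 libraries. There it stood at percentiles 6.85 and 49.1 with ACSS2i and 49.1 and 45.5 with DMSO. ACSS2i replicate 2 thus lay with the DMSO libraries and ACSS2i replicate 1 apart from them. The depths behind these values were recovered from the deposited fold and p. They are called fragments here, although whether the caller piled up fragments, reads or cut sites is not stated. With ACSS2i they were 17 and 37 fragments at the summit over local backgrounds of 4.57 and 8.40. With DMSO they were 45 and 91 over 6.69 and 11.7. Set against the genome background of each library, the summit stood at 7.34 and 11.7 times with ACSS2i and 21.9 and 52.1 times with DMSO, beside medians of 8.64 and 9.17 and of 19.2 and 44.1 over the 13306 regions called in all 4 libraries.

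The upstream RefSeq start of ACSS2, at 34874989, lay inside no peak. The nearest peak was 1178 and 1215 bp away with ACSS2i and 1105 and 946 bp away with DMSO. A window of 1000 bp around the lower end of the gene therefore catches the start region in DMSO replicate 2 alone, although a peak was called at the downstream start in all 4 libraries.

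The intragenic region of ACSS2 (34907630 to 34908170) was called in neither ACSS2i library. DMSO replicate 1 had a peak of 342 bp there with a fold of 3.86 and DMSO replicate 2 one of 541 bp with a fold of 10.2, at percentiles 21.2 and 74.6 of their lists. Its summits lie 31263 and 31290 bp downstream of the start in DMSO replicates 1 and 2, and no other annotated gene span overlaps it. The DMSO libraries differed widely here, and with a −log10 q of at least 5 the peak of DMSO replicate 1, at 4.80, was no longer counted. One more region (34872760 to 34872999), near a GGT7 start, had a fold of 4.63 and was called only in DMSO replicate 2. In all, the ACSS2 window held 2 and 1 peaks with ACSS2i and 2 and 3 with DMSO, a difference of −1 peak (two-sided exact permutation p = 0.667). The 2 peaks of ACSS2i replicate 1 are the narrow pair at the start region. By merged region the window held 1 and 1 with ACSS2i and 2 and 3 with DMSO, and these counts were not tested. With 2 libraries against 2, no exact permutation p can go below 0.33, and over the 7 genes tested in this way every adjusted exact permutation p was 1.00.

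**Figure D1:**
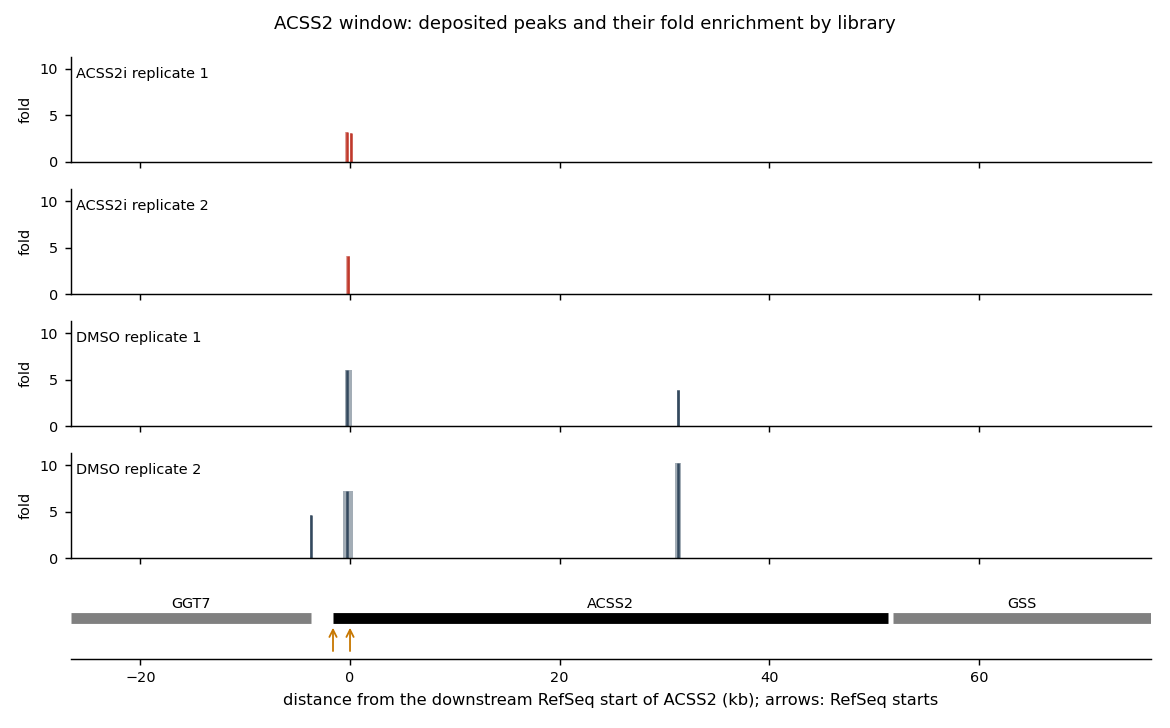
Peaks in the ACSS2 window by library; the horizontal axis is the distance from the downstream RefSeq start in kb and the vertical axis the authors' fold enrichment. Shaded boxes are peaks and vertical lines their summits, arrows mark the RefSeq starts, and bars are gene spans. Every library has a peak at the downstream start, with folds of 3.23 to 7.25, and the DMSO libraries alone have the region inside the gene.

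ACSS1, the mitochondrial synthetase for acetate, had the only start-site region of the set that was called in both DMSO libraries and in neither ACSS2i library. The gene lies on the minus strand of chromosome 20 (25006237 to 25058139). Its region (25057193 to 25057840) had DMSO folds of 6.02 and 5.37, at percentiles 45.1 and 35.9, with 18 and 25 fragments at the summit. It did not cover the start at 25058139 but lay inside the gene, 299 and 301 bp from that start, and it covered none of the 250 bases printed above. The nearest peaks of the ACSS2i libraries were 78673 and 65267 bp from that start. No peak lay within 1000 bp of the second RefSeq start of ACSS1, at 25032706, in any library. The other region of this window (24992226 to 24993091) lies at a start of APMAP, the neighbouring gene. It had no peak in ACSS2i replicate 1 and a fold of 4.62 in ACSS2i replicate 2, against 10.1 and 14.2 with DMSO.

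ACSS3 had no accessible end in any library. Its span on chromosome 12 (81077871 to 81261210) is the longest of the set, and the ACSS2i libraries and DMSO replicate 1 had no peak in the whole window. DMSO replicate 2 had a pair of peaks inside the gene, at 81200395 to 81200867 with a fold of 7.64 and at 81209690 to 81210034 with a fold of 3.64. These rested on 20 and 9 fragments, and the smallest count called in that library was 8. Among all protein-coding genes, 39.4% had no start-site peak in any library.

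ACLY, which splits exported citrate into acetyl-CoA and oxaloacetate, had the most regions of the set, and all were called in every library. The window of the gene (chromosome 17, 41866917 to 41930545, minus strand) held 6 regions. With a rule of at least 50% coverage, 2 of the 6 would be called in neither ACSS2i library. These were the region at a KLHL11 start and the region at the upper end of the ACLY span. With a −log10 q of at least 5 this held for 1. Of all regions called in both DMSO libraries, the shares under these rules were 53.8% and 40.9%. Of all regions called in both DMSO libraries, 42.2% were called in all 4. The median window of the 20037 protein-coding genes held 3 regions, of which 2 were called in both DMSO libraries, and ACLY lay at percentile 85.0 for the first count and 94.7 for the second. Peaks covered 2723 and 4563 bp of the window with ACSS2i, against 6042 and 7590 bp with DMSO.

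At its starts (41919022 and 41918951), ACLY had folds of 3.45 and 6.20 with ACSS2i and 7.38 and 9.20 with DMSO. The start peak was 221 bp wide in ACSS2i replicate 1 and ended 37 bp short of the upstream start. In ACSS2i replicate 2 the peak was 1275 bp wide, against 1575 and 2383 bp with DMSO, and covered both starts as the DMSO peaks did. Among the regions of all 4 libraries the start region stood at percentiles 6.94 and 89.8 with ACSS2i and 72.9 and 79.0 with DMSO. The ACSS2i libraries thus lay on either side of the DMSO libraries.

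The strongest ACLY region by percentile lay inside the gene, 8151 bp downstream of a start (41910456 to 41911278), in all libraries but ACSS2i replicate 2, where the start region ranked higher. Its folds were 6.46 and 4.82 with ACSS2i and 6.45 and 7.44 with DMSO, so the groups overlapped. Among the regions of all 4 libraries it stood at percentiles 94.6 and 86.8 with ACSS2i and 94.3 and 91.7 with DMSO. Its summit held 45 and 61 fragments with ACSS2i and 95 and 178 with DMSO, over a local background of 6.12 and 11.9 with ACSS2i and 13.9 and 23.1 with DMSO. The next region downstream (41906940 to 41908519) had 2 summits in each ACSS2i library and 3 in each DMSO library, with folds of 3.92 and 4.43 with ACSS2i against 4.52 and 5.12 with DMSO. The region 23963 bp downstream of a start (41894776 to 41895694), which also overlaps the noncoding gene LOC124904005, had folds of 5.23 and 4.77 with ACSS2i against 9.33 and 9.12 with DMSO.

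The remaining ACLY regions lay at the upper end of the gene span and at a neighbouring gene. The region at the upper end of the ACLY span (41930040 to 41930856), which also reaches into ODAD4, had folds of 4.83 and 6.46 with ACSS2i and 10.7 and 11.3 with DMSO. That end is the upstream one, as ACLY lies on the minus strand. The nearest RefSeq start of ACLY used here was 11018 bp from the region. The region at a KLHL11 start (41864713 to 41865796) had folds of 3.71 and 3.08 with ACSS2i and 7.77 and 10.00 with DMSO. Its percentile among the regions of all 4 libraries was 7.09 and 2.69 with ACSS2i and 54.2 and 47.5 with DMSO, so neither ACSS2i value reached the DMSO values. Of all such regions, 16.5% ranked lower in both ACSS2i libraries and 18.1% ranked higher.

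**Figure D2:**
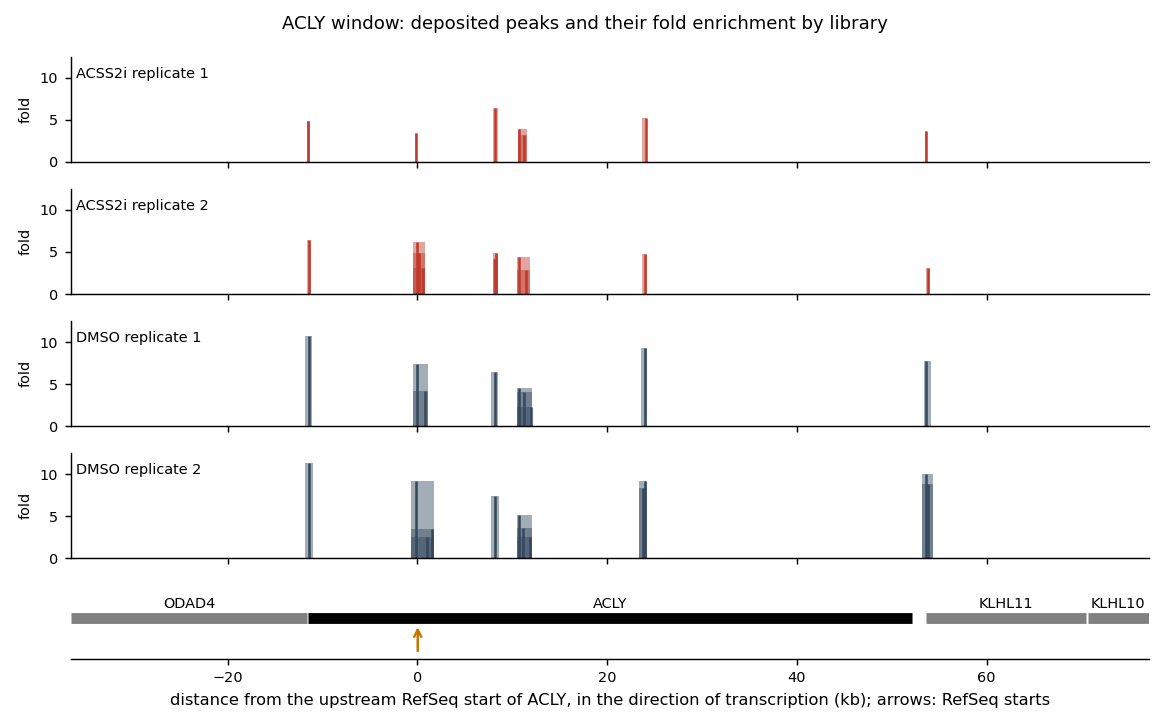
Peaks in the ACLY window by library, drawn in the direction of transcription; the horizontal axis is the distance from the upstream RefSeq start in kb and the vertical axis the authors' fold enrichment. Shaded boxes are peaks, vertical lines are summits, arrows mark the RefSeq starts, and bars are gene spans. All 6 regions are called in all 4 libraries, and the start peak is narrowest, at 221 bp, in ACSS2i replicate 1.

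SLC25A1, the citrate carrier that feeds ACLY, and PDHA1 each had a start-site peak in only 1 ACSS2i library, and not in the same one. SLC25A1 is a compact gene on chromosome 22 (19175581 to 19178736, minus strand) whose start region (19178267 to 19179704) reaches into CLTCL1. It had a fold of 4.70 in ACSS2i replicate 1 and no peak in ACSS2i replicate 2, against 5.74 and 8.58 with DMSO. These values are of the strongest summits, which lay at −260 bp from the start in ACSS2i replicate 1 and at −829 and −208 bp with DMSO. The DMSO replicate 1 summit nearest that of ACSS2i replicate 1, at −272 bp, had a fold of 4.16, which is below 4.70. The peak of ACSS2i replicate 1 was 854 bp wide, close to the 839 bp of DMSO replicate 1 and narrower than the 1390 bp of DMSO replicate 2. Peaks covered 222 and 0 of the 250 bases printed for this gene with ACSS2i, and 121 and 250 with DMSO. A further region (19171181 to 19172165), which reaches into the noncoding gene LINC01311, had a peak in DMSO replicate 2 and in no other library (fold 6.22).

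PDHA1 encodes the E1 alpha subunit of pyruvate dehydrogenase and lies on the X chromosome (19343927 to 19361718, plus strand). Its start region (19343502 to 19344524) had no peak in ACSS2i replicate 1 and a fold of 4.32 in ACSS2i replicate 2, against 7.93 and 10.8 with DMSO. The ACSS2i replicate 2 peak was 530 bp wide and rested on 17 fragments, against 658 and 1023 bp and 27 and 47 fragments with DMSO. Where it was called, the peak covered all 250 bases printed for the gene. A weak region beyond the gene (19372402 to 19372610), inside MAP3K15, had a peak in DMSO replicate 2 and in no other library (fold 4.16).

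CRAT kept both of its main regions in all 4 libraries, and each also lies at a start of a neighbour. The gene lies on chromosome 9 (129094794 to 129110793), and its strand and starts were not used here. The region at its upper end (129110048 to 129111781) also holds a start of PTPA, a phosphatase activator, and had folds of 4.97 and 3.93 with ACSS2i and 8.70 and 9.52 with DMSO. Among the regions of all 4 libraries it stood at percentiles 63.6 and 44.9 with ACSS2i and 90.8 and 82.6 with DMSO, and the groups did not overlap. Such a lower rank in both ACSS2i libraries was seen at 2 of the 9 regions of the set called in all 4, beside 16.5% of all such regions. At the upper end of CRAT the ACSS2i peaks were 702 and 787 bp wide, against 1497 and 1734 bp with DMSO. With a rule of at least 50% coverage of the merged region, that region would be called in neither ACSS2i library, as 53.8% of all regions called in both DMSO libraries would be. The region at a start of DOLPP1 (129080478 to 129081710) had folds of 6.68 and 4.93 with ACSS2i and 8.47 and 11.9 with DMSO. It stayed among the top regions, at percentiles 91.1 and 81.4 with ACSS2i and 88.9 and 95.9 with DMSO. A region inside PTPA (129125555 to 129125913) had a peak in DMSO replicate 2 and in no other library (fold 4.48).

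**Figure D3:**
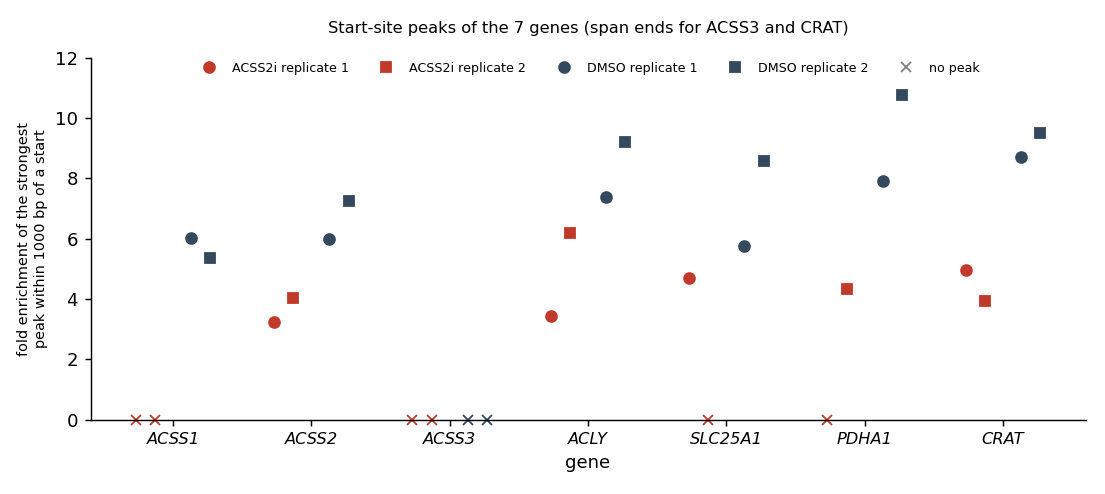
Authors' fold enrichment (vertical axis) of the strongest peak within 1000 bp of a start of each gene (horizontal axis), or of either span end for ACSS3 and CRAT; points are single libraries and crosses on the axis mark no peak. ACSS2, ACLY and CRAT have a peak in all 4 libraries. Their ACSS2i folds lie below the DMSO folds, as at 82.2% of all regions called in all 4 libraries. ACSS1 has no peak with ACSS2i, and ACSS3 has none at all.

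Across the 7 genes, 4 and 4 had a start-site peak in the ACSS2i libraries and 6 and 6 in the DMSO libraries. The 6 were the same genes in both DMSO libraries, beside 53% of all protein-coding genes with such a peak in both. Of these 6, 3 (ACSS2, ACLY and CRAT) kept a peak in every library and 1 (ACSS1) had none with ACSS2i. The shares over all protein-coding genes were 58.1% and 18.8%, and the counts of so few genes lie near those shares. Without ACSS2i replicate 1 the genes with none were ACSS1 and SLC25A1, beside 2408 of 10619 genes in all, and without ACSS2i replicate 2 they were ACSS1 and PDHA1, beside 4039 of 10619 genes. Each list was also cut to its 16400 strongest peaks. Of the 5 genes still called in each DMSO library, 0 lacked a peak in both ACSS2i libraries, beside 320 of 6280 genes in all. SLC25A1 still lacked one in ACSS2i replicate 2 and PDHA1 in ACSS2i replicate 1. The ACSS1 peaks ranked below the level of the cut.

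Of the 14 regions of the windows called in both DMSO libraries, 9 were called in all 4 libraries and 2 in neither ACSS2i library, the intragenic ACSS2 region and the ACSS1 region. The whole-series shares were 42.2% called in all 4 and 33.5% called in neither ACSS2i library, and 6 of the 9 regions kept were those of ACLY. Without ACLY, 2 of 8 such regions were called in neither ACSS2i library. No region showed the opposite pattern. Of the 9 regions called in both ACSS2i libraries, 0 lacked a DMSO peak, beside 0.0897% of such regions in the whole series. The rule of 3 counts would allow a share of up to 33.3% for independent regions, but 6 of the 9 share the ACLY window. The 6 of 20 regions called in a single library were all in DMSO replicate 2, the longest list. In the whole series 20939 of 53572 regions were called in a single library. Without DMSO replicate 1 as many as 8 of 20 regions were called with DMSO and not with ACSS2i (55.9% of all regions under that choice), and without ACSS2i replicate 2 the count was 4 of 14 (52.2% of all). At equal list length it was 0 of 12, beside 6.41% of all regions, where the same rule would allow up to 25% for independent regions.

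The windows held 11 and 11 peaks with ACSS2i and 14 and 20 with DMSO, or 11.0 ± 0.00 with ACSS2i against 17.0 ± 4.24 with DMSO (SD, n = 2 per group), a ratio of 0.647. By merged region, where the narrow pair at the ACSS2 start counts as 1, the numbers were 10 and 11 with ACSS2i and 14 and 20 with DMSO. Over all peaks the ratio was 0.452. The spread of the 4 ratios between single libraries was 0.136 (SD) for the windows and 0.128 for all peaks, and the difference between the ratios was not tested. Of the 9 regions called in all 4 libraries, 8 had lower folds in both ACSS2i libraries (82.2% of all such regions) and 9 had narrower peaks (79.9%). None had higher folds in both (0.383% of all) or wider peaks in both (0.165%).

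**Figure D4:**
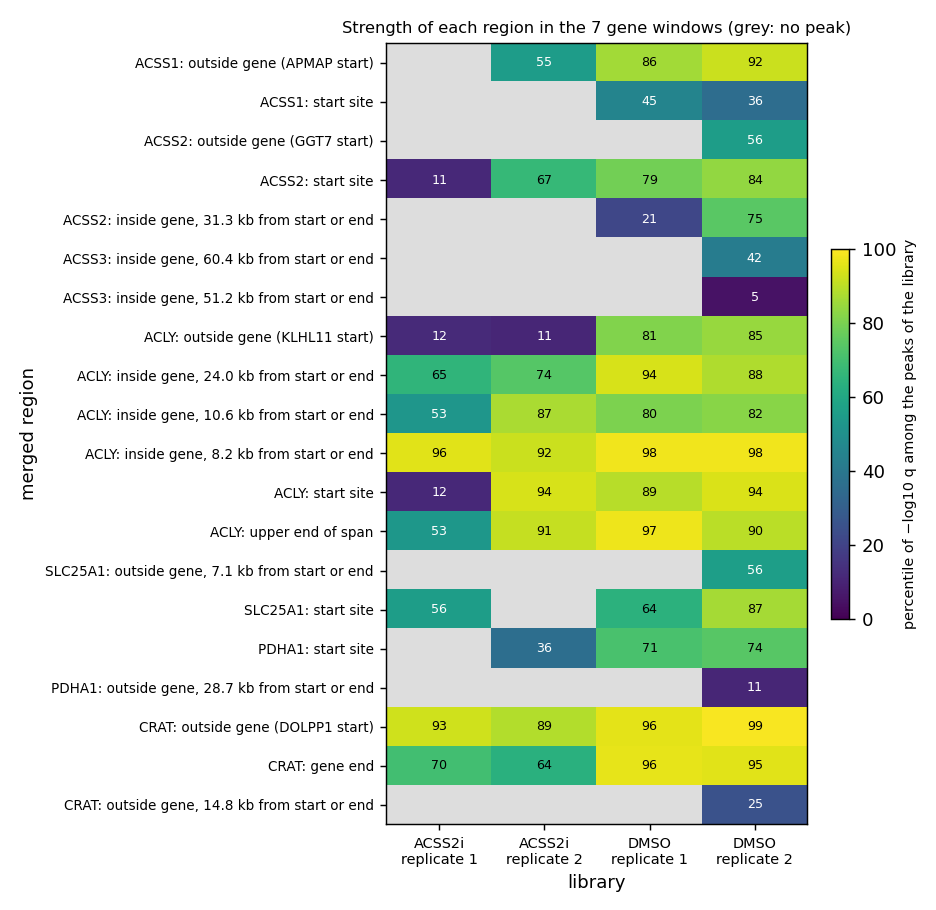
Percentile of −log10 q among the peaks of the library (colour and number) for each of the 20 merged regions (vertical axis) in the 4 libraries (horizontal axis); grey means no peak, and a name in brackets marks a region at a start of that neighbouring gene. The 6 ACLY regions are called throughout, and 6 regions are called in DMSO replicate 2 alone. In the whole series 20939 of 53572 regions are called in a single library.

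Other genes of acetyl-CoA metabolism were taken from a list of 38, and 32 of them had RefSeq starts (span ends were used for the other 6). Start-site peaks were called for 25 and 32 genes with ACSS2i and for 36 in each DMSO library. Over all 20037 protein-coding genes the numbers were 6609 and 8291 with ACSS2i and 10665 and 12093 with DMSO. Of the 36 called in both DMSO libraries, 25 were called in all 4 and 4 in neither ACSS2i library, beside 58.1% and 18.8% of all genes. The 7 others were called in ACSS2i replicate 2 and not in replicate 1. Over all protein-coding genes, 4039 of the 10619 called in both DMSO libraries lacked a peak in ACSS2i replicate 1, and 1996 of these also lacked one in replicate 2. CPT1A, which starts mitochondrial fatty acid oxidation, and the thioesterase gene ACOT12 had no start-site peak in any library.

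Among the other subunits of the pyruvate dehydrogenase complex, PDHB, the E1 beta subunit, and DLAT, the E2 subunit, lacked a peak in ACSS2i replicate 1 as PDHA1 did. Of the 10619 protein-coding genes called in both DMSO libraries, 4039 lacked one in that library. PDHB had a fold of 4.71 in ACSS2i replicate 2, against 7.80 and 11.7 with DMSO. DLAT had 3.60 in ACSS2i replicate 2, against 4.29 and 6.77 with DMSO. DLD, the E3 subunit, and PDHX, the E3 binding protein, had peaks in all 4 libraries. The DLD region was among the strongest of the list, with folds of 7.61 and 8.33 with ACSS2i and 10.1 and 13.8 with DMSO. The inhibiting kinases PDK1, PDK2 and PDK3, the activating phosphatases PDP1 and PDP2 and the pyruvate carrier subunits MPC1 and MPC2 were called in all 4 libraries, and PDK4 was not called in ACSS2i replicate 1.

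Among the genes of the list called in both DMSO libraries and in neither ACSS2i library were IDH2, ACACB and MLYCD. IDH2, a mitochondrial isocitrate dehydrogenase, had DMSO folds of 3.22 and 9.99. ACACB, an acetyl-CoA carboxylase of mitochondria, had 4.05 and 3.77, and MLYCD, which turns malonyl-CoA back into acetyl-CoA, had 3.31 and 12.1. The lower DMSO percentile was 14.4 for IDH2, 9.28 for ACACB and 8.73 for MLYCD, so each ranked low in at least 1 DMSO library.

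The strongest genes of the list that were called in all 4 libraries were HMGCS1, DLD, CROT and CS, ranked by the lower of their DMSO percentiles. HMGCS1, which joins acetyl-CoA units for sterol synthesis, had folds of 7.44 and 6.49 with ACSS2i and 9.29 and 11.3 with DMSO. CROT, a carnitine acyltransferase of peroxisomes, had 5.10 and 7.88 with ACSS2i and 8.39 and 15.6 with DMSO. CS, which condenses acetyl-CoA with oxaloacetate, had 6.98 and 4.90 with ACSS2i and 9.80 and 10.8 with DMSO.

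By the 4 percentiles of the strongest peak in each gene span, the genes most like ACSS2 among 20037 were PTBP1, VPS4B, COMMD8, SLC25A11 and TBC1D19. The measure of likeness was the Euclidean distance over the 4 libraries, in percentile points, with 0 for a library without a peak. ACSS2 stood at 11.5 and 66.8 with ACSS2i and 78.7 and 83.8 with DMSO, and PTBP1, the nearest at a distance of 4.24, at 15.4 and 67.2 with ACSS2i and 80.2 and 83.7 with DMSO. The fifth, TBC1D19, lay at 6.01. Of the other members, PDHA1 was the nearest to ACSS2 at 34.9, and ACSS3 was the farthest at 112.0. Both distances include values of 0, for PDHA1 in ACSS2i replicate 1 and for ACSS3 in all libraries but DMSO replicate 2.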

How the data were processed

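Peak lists from ATAC-seq were analysed, 2 libraries per group. Per the labels' protocols, nuclei of thawed, DNase-treated cells were tagmented for 30 min and sequenced in paired 150-base reads. MACS2 2.1.2 and Bowtie2 are among the tools, and hg38 is the build, in the submitters' processing notes. For caller options, any Tn5 shift, the filter behind the lists and read totals, the sources used here state nothing.

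The authors called peaks per library. They deposited a ratio (fold of the summit over local background), −log10 p and −log10 q (p-value and q-value within the library), a score (−log10 q rescaled, not used) and the summit offset in bp, as the layout and values of the files show. Folds are the authors' own values and were not tested between groups.

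Rows with the same interval made 1 peak, which took the values of its strongest summit, and the percentile is its rank by −log10 q in the library. Peaks overlapping by 1 bp or more were merged into regions. A start-site peak lies within 1000 bp of a RefSeq start (GRCh38.p14, 5 of the 7 genes), or of either span end where the RefSeq table used has no start. Fold and −log10 p were solved for a whole-number depth, called fragments here, and a Poisson background. The solution gave back the deposited −log10 p to 0.001 in all but 2 and 2 rows of the ACSS2i lists and in all rows of the DMSO lists. These counts cover the depth at a summit only. Python 3.11.15, SciPy 1.17.1 and pandas 2.3.3 were used, and the code was tested on simulated data. Peak numbers were compared by exact permutation over libraries, whose p-values reflect variation among the libraries alone, possibly technical. Members and lists, including the markers, were chosen with earlier results of these data known. Named were all members, every ACSS2 peak, the start-site and strongest regions of the other members and those called in 1 group alone, and of the list of 38 genes those called in 1 group alone and the 4 strongest in all libraries; 1 gene of that list is counted but not reported here. Alternatives were the window, the threshold, equal list length, the overlap, counting summits, and leaving out each library.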

Additional observations from a re-analysis of the deposited data

How the results depend on the processing

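Calls rested on single libraries and on the length of the lists, and 2 libraries per group allow no test to pass. The count of regions called with DMSO alone, 2, was 0 at equal list length, 6 when a peak had to cover at least 50% of the region (53.8% of all regions under that choice), and 2 to 8 when single libraries were left out. The count in the opposite direction was 0 under every alternative run. The count of genes with a start-site peak with DMSO alone, 1, was 0 at equal list length and 1 to 2 when single libraries were left out. The ratio of peaks, 0.647, was 0.840 at equal list length, where all peaks give 1.00, and 0.550 to 0.786 without single libraries. The ACSS2 difference of −1 peaks was 0 at equal list length and −1.50 to −0.50 without single libraries. Gene by gene, the count of regions called with DMSO alone stayed within a factor of 1.5, or at 0, in 41 of 56 values over these alternatives. It moved in 15, among them ACLY, which had 0 as reported and 1 with a −log10 q of at least 5. Only ACSS1 and ACSS2 had a count above 0 as reported, and both counts were 0 at equal list length. For the other genes an unchanged value is a count that stayed 0, so the 41 values do not measure how stable a call is. With 50% coverage the count was 2 for ACSS2 (1 as reported), 2 for ACLY and 1 for CRAT (0 as reported for both). Paired by replicate number, as a block, the ACSS2 difference was −1 (exact sign-flip permutation p = 1.00). The numbers are only shared labels, and the deviations of same-numbered libraries correlated at 0.0950 over 13306 regions. Depth limits the weakest calls, which rested on 11 and 12 fragments in the ACSS2i libraries and 9 and 8 in the DMSO libraries.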
